A study of Homo sapiens with 8 samples.

Results

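The comparison set parental ovarian cancer cells with functional BRCA1 against parental ovarian cancer cells without it, across all genes, by RNA-seq of total RNA. The 4 libraries were taken by their labels from the 8 of the series: 2 of UWB1.289 cells, a human ovarian cancer line that is BRCA1-deficient, at passage 29, and 2 of UWB1.289+BRCA1 cells, the BRCA1-proficient counterpart, at passage 10. Of the 32803 genes in the count table, 16221 had enough counts to be tested. The other 4 libraries came from derivatives of both lines that are resistant to a PARP inhibitor (deficient at passage 56, proficient at passage 45). They entered the filter on low counts, the scaling, the mean behind the GC trends and the estimate of the spread, and they serve for a closing comparison. All cells grew in drug-free medium. BRCA1 state and passage number changed together between the parental groups, so their effects cannot be told apart, and each state is represented by 1 line. The labels do not say that the 2 libraries of a group were separate cultures, so the p-values reflect no more than the scatter of these libraries, which may be technical. In bulk RNA, fewer cells of a kind and less RNA per cell cannot be told apart.

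BRCA1 is a tumour suppressor that joins BARD1 in a ubiquitin ligase, promotes the resection of broken DNA ends and, through PALB2, recruits BRCA2 for homologous recombination. Ovarian carcinomas that lost BRCA1 repair double-strand breaks by end joining instead and are sensitive to PARP inhibitors, which act on cells that cannot use homologous recombination. UWB1.289+BRCA1 is the same line with BRCA1 put back by stable transfection, and it has been used as a matched control.

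Values are read counts scaled by library size (CPM), in the order of replicates 1 and 2, and where "against" joins them the deficient libraries come first. A log2 fold change is positive where the proficient line was higher, carries its standard error and comes from edgeR's quasi-likelihood test, whose p-values were adjusted by Benjamini-Hochberg over all 16221 genes. "Higher" or "lower" alone means an adjusted p under 0.05. Many of the differences followed the GC content of the transcripts, so the fold change after removal of each library's GC trend is given as the corrected value.

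BRCA1 itself was measured at 36.1 and 35.1 CPM in the deficient libraries and at 212 and 191 CPM in the proficient ones. The groups did not overlap, and the log2 fold change was 2.50 ± 0.07 (adjusted p = 1.16e-09, corrected 2.15). The direction matches the labels. The transcript was still present in the deficient line, and the counts do not separate an endogenous from an introduced copy. The means were 35.6 ± 0.647 CPM (SD, n = 2) and 202 ± 14.4 CPM (SD, n = 2).

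The remaining parental differences were broad. The 2 deficient libraries held 29800973 and 34394107 counts and the 2 proficient ones 26125946 and 29557609. By the adjusted p alone, 5246 genes were higher (32.3% of those tested) and 4881 lower (30.1%), 62.4% in either direction, and in 83% of genes the libraries of both lines did not overlap. With a change of at least 2-fold as well, 1709 genes were higher (10.5%) and 2306 lower (14.2%). The test had 4 residual degrees of freedom over the 8 libraries. The scatter between replicates, as chi-square per degree of freedom, was 5.70 in the parental deficient and 4.26 in the parental proficient group. It was 23.4 in the resistant deficient and 8.87 in the resistant proficient group, and all groups shared the estimate of the spread. In a fit of the parental groups alone, 1581 genes were at least 2-fold higher and 2420 lower.

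The fold changes declined along transcript GC content. Over 15644 genes with a GC value, Spearman's rho between GC content and log2 fold change was -0.43, a description across genes that share the same 4 libraries. The median log2 fold change ran from 0.48 in the 10% of genes with the lowest GC content to -0.89 in the 10% with the highest. In the lowest of these classes 4.79% of genes were at least 2-fold lower, and in the highest 38.7%. The trend differed between libraries: genes of the highest class lay 0.27 and 0.06 above the mean of all libraries (log2) in the deficient libraries and at -0.75 and -0.56 in the proficient ones. With the trends removed, rho was -0.0155, and 1616 genes (9.96%) were at least 2-fold higher and 1564 (9.64%) lower. Both ways of computing called 4098 genes higher (25.3%) and 3704 lower (22.8%), while 99 genes (0.61%) went from higher to lower and 106 (0.653%) from lower to higher. Examples of such turns were NSA2, a ribosome assembly factor (0.34 ± 0.08, corrected -0.11), the WNT receptor FZD6 (0.33 ± 0.07, corrected -0.10) and HERC4, a ubiquitin ligase (0.31 ± 0.07, corrected -0.12). In the other direction stood the histone deacetylase HDAC7 (-0.70 ± 0.15, corrected 0.14), PDLIM7 (-0.62 ± 0.21, corrected 0.24) and SMG9, a factor of nonsense-mediated decay (-0.58 ± 0.14, corrected 0.19). With a replicate block added to the correction, FZD6 and SMG9 lost their calls (adjusted p = 0.0511 and 0.0502). Without proficient replicate 1 the calls of NSA2 and HERC4 were lost (adjusted p = 0.0668 and 0.0642), and PDLIM7 lost its call without deficient replicate 1 or either proficient replicate (adjusted p = 0.0791 to 0.118). The part of library preparation in this trend was not tested.

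**Figure D1:**
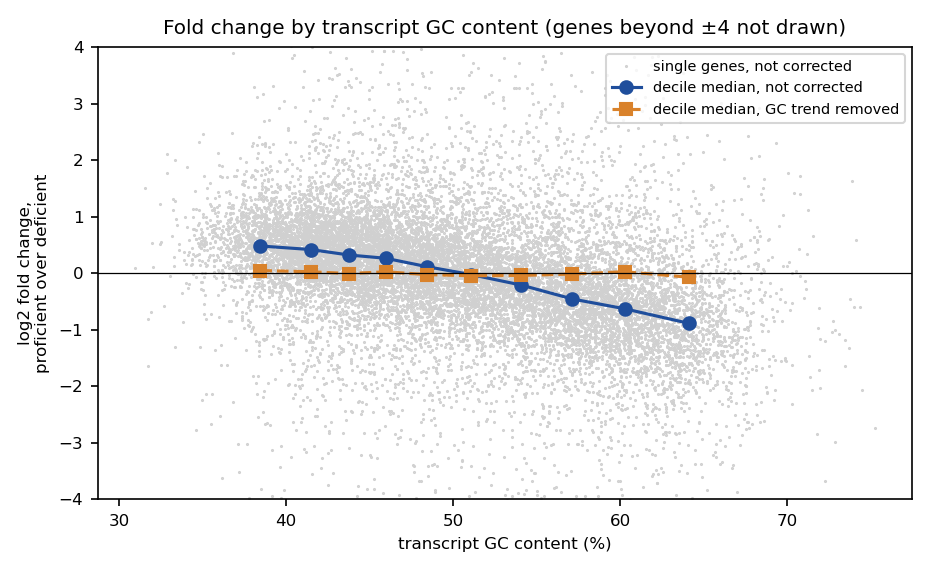
Log2 fold change of each gene (proficient over deficient, y axis) against transcript GC content in percent (x axis), with the median of each GC class of genes before and after removal of the libraries' GC trends. The uncorrected medians decline from 0.48 to -0.89 and the corrected ones stay between -0.07 and 0.04.

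The genes with the largest fold changes were close to a switch between the lines. PASD1, a cancer-testis antigen encoded on the X chromosome, had 0 counts in both deficient libraries and 62.8 and 66.7 CPM in the proficient ones, at least 1411-fold higher against a floor of 3 counts over the group. The homeobox gene NKX1-2 also had 0 counts in the deficient line against 7.34 and 6.05 CPM, at least 145-fold higher. FLT1, the VEGF receptor 1, stood at 0.79 and 1.12 CPM in the deficient and 76.8 and 69.5 CPM in the proficient libraries (6.24 ± 0.17, adjusted p = 7.69e-10). SERPINA1, which encodes the protease inhibitor alpha-1-antitrypsin, went from 2.5 and 2.95 to 126 and 129 CPM (5.54 ± 0.10, adjusted p = 9.06e-11). Genes of this group were chosen for a large fold change without overlap between the libraries, so their separation follows from the choice. Over all genes tested, 83% did not overlap.

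The other 8 genes of this group were between 4.92 and 31 CPM in the proficient libraries and at most at 0.757 CPM in the deficient ones. They were the thyrotropin receptor TSHR (5.64 ± 0.33), ADAMTSL1 (5.63 ± 0.24), CYP8B1, the sterol 12-alpha-hydroxylase of bile acid synthesis (5.57 ± 0.55), and HLA-DMB, a chain of the MHC class II peptide exchanger (5.55 ± 0.29). The others were the glycogenin GYG2 (5.51 ± 0.28), EDIL3, a matrix ligand of integrins (5.31 ± 0.25), the exchange factor FGD3 (5.28 ± 0.56) and FAM181B (4.99 ± 0.44). The corrected values of these 8 genes lay between 4.87 and 5.97.

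The opposite switch was found for 8 genes with at most 3 counts over both proficient libraries and at least 5 CPM in the deficient line. Of these, 4 had 0 counts in the proficient line. ARMCX2, an X-linked armadillo-repeat gene, was at 25.9 and 26.5 CPM in the deficient libraries, at least 469.6-fold above the proficient line. The gelatinase MMP2 was at 19.6 and 20.3 CPM, at least 358-fold above. SMOC1, a secreted calcium-binding matrix protein, was at 8.32 and 7.77 CPM (at least 144-fold) and the folate receptor FOLR2 at 4.9 and 5.79 CPM (at least 96.3-fold). The others had 1 to 3 counts in the proficient line, so their ratios carry wide counting intervals: 408-fold for the neuron navigator NAV3 (95% interval 113 to 3374), 345-fold for the deacetylase AADAC (61.6 to 13659), 174-fold for COL22A1 (47.8 to 1439) and 146-fold for EVC, a ciliary component of hedgehog signalling (40.2 to 1212). The interferon-inducible DNA sensor IFI16 was also lower, with 53.8 and 52.2 CPM in the deficient and 0.403 and 0.138 CPM in the proficient libraries (-7.64 ± 0.26), as was HHIP, a decoy receptor of hedgehog ligands, with 30.7 and 31.4 CPM against 0.0806 and 0.207 CPM (-7.66 ± 0.26). COL6A1 and COL6A2, neighbours that encode chains of collagen VI, fell from 30.0 and 26.3 to 0.0806 and 0.0691 CPM and from 15.2 and 12.2 to 0.161 and 0 CPM.

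**Figure D2:**
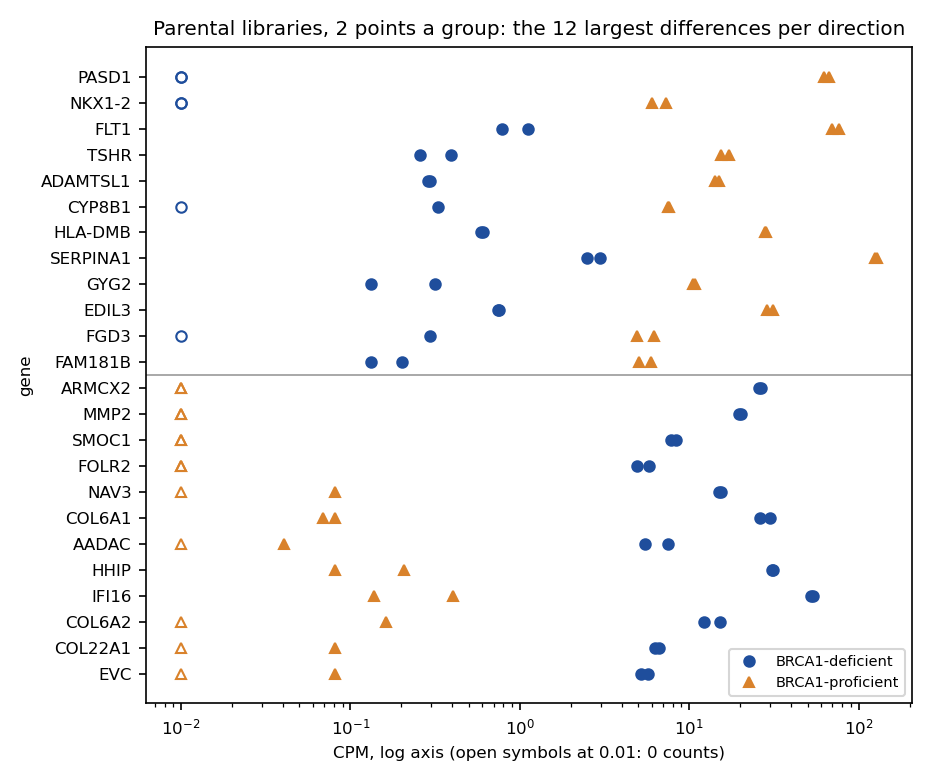
CPM on a log axis (x) of the 12 genes per direction with the largest fold change (y), 1 point per library, circles for the 2 deficient and triangles for the 2 proficient libraries, open symbols for 0 counts. The 24 genes were chosen with no overlap between the lines, which held for 83% of all genes tested.

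Interferon-stimulated genes were the list with the lowest median in the parental comparison. They encode antiviral proteins that are switched on when interferon receptors activate transcription factors such as STAT2 and IRF9, which bind a promoter element whose core repeats GAAA. Of 45 listed genes, all tested, 36 were lower and 5 higher in the proficient line (30.1% and 32.3% over all genes), and 30 were lower by at least 2-fold. The list median was -2.44 beside 0.00 over all genes, and with GC corrected 38 were lower and 3 higher, with a median of -1.84. Without proficient replicate 1, 3 members were higher.

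The element, GAAANN followed by GAAA on either strand, was present from 250 bases before to 50 after the start of 25 of the 36 members whose promoter RefSeq (GRCh38.p14) gave, 69.4%, and in 2.96% of the promoters of 12426 tested genes. Among the 25 of the 36 that were at least 2-fold lower it was found in 18 (72%), and among the 11 others in 7 (63.6%). A match is a string of letters and not a measured site. The 250 bases before the start are printed for 4 members that were much lower, with the element in capitals, so that its place can be seen: IFI44 (chr1:78649581-78649830), OAS3 (chr12:112938224-112938473), IFI44L (chr1:78620198-78620447) and IFIT1 (chr10:89392373-89392622), all on the plus strand and 5′ to 3′. IFI44 and OAS3 were among the members with the smallest p, and IFI44L and IFIT1 were chosen after their values were seen. All 4 hold the element, which not all of the 25 lower members did.
IFI44: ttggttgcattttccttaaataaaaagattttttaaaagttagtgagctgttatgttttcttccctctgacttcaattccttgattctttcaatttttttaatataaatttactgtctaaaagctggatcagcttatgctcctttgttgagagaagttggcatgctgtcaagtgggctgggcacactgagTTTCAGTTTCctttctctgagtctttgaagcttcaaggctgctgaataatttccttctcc
OAS3: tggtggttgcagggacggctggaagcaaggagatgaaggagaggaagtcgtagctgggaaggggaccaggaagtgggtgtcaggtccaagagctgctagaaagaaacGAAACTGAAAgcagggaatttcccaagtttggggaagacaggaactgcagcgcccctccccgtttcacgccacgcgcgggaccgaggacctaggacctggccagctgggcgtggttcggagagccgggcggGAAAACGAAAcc
IFI44L: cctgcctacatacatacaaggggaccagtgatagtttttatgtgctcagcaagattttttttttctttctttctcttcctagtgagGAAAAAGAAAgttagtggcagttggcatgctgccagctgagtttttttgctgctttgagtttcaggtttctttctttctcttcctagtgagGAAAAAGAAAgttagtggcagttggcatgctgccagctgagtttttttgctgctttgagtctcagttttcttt
IFIT1: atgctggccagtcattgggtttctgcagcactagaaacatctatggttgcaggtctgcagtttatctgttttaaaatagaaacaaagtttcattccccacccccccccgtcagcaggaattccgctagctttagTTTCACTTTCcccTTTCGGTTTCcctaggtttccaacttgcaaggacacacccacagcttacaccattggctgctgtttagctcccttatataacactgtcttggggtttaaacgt
The upstream sequence of IFI44 holds 1 element and those of OAS3, IFI44L and IFIT1 hold 2 each.

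OAS2 and OAS3 make 2′-5′ oligoadenylates that activate RNase L. OAS2 was at 122 and 114 CPM in the deficient libraries and at 1.01 and 1.69 CPM in the proficient ones (-6.43 ± 0.18, adjusted p = 7.2e-10), and OAS3 at 267 and 253 CPM against 16.6 and 17.5 CPM (-3.93 ± 0.10, adjusted p = 4.2e-10). IFI44 fell from 80.6 and 81.6 to 1.61 and 1.52 CPM (-5.69 ± 0.13, adjusted p = 1.84e-10). The antiviral GTPase MX1 fell from 55.6 and 56.1 to 1.65 and 2.04 CPM (-4.91 ± 0.14, adjusted p = 1.08e-09). These 4 genes were named for the smallest p in the list, so the separation of their libraries follows from the choice. IFI44L went from 45.4 to 1.06 CPM (means) and IFIT1 from 22 to 2.62 CPM. The IFITM genes restrict virus entry: IFITM1 fell from 49.9 and 41.6 to 1.17 and 2.25 CPM (-4.72 ± 0.25), IFITM2 from 15.8 and 12.5 to 0.685 and 0.726 CPM (-4.31 ± 0.21) and IFITM3 from 137 and 117 to 21.2 and 22.4 CPM (-2.55 ± 0.14). These 3 are near-identical neighbours, and how reads common to them were counted is not given in the sources used here, so their separate values are uncertain.

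The transcription factors of the pathway did not move as 1 block. STAT2 was higher in the proficient line, 67.6 and 66.2 against 115 and 118 CPM (0.80 ± 0.07, adjusted p = 2.81e-06), and so was IRF1, 10.7 and 11.1 against 32.7 and 33.4 CPM (1.60 ± 0.12, adjusted p = 6.35e-07). IRF9 was lower, with a log2 fold change of -1.88. Among the PARP genes of the interferon response, PARP9 fell from 63 and 65.4 to 29 and 25.9 CPM (-1.23 ± 0.09) and PARP12 from 56.6 and 52.5 to 22 and 23 CPM (-1.28 ± 0.09).

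**Figure D3:**
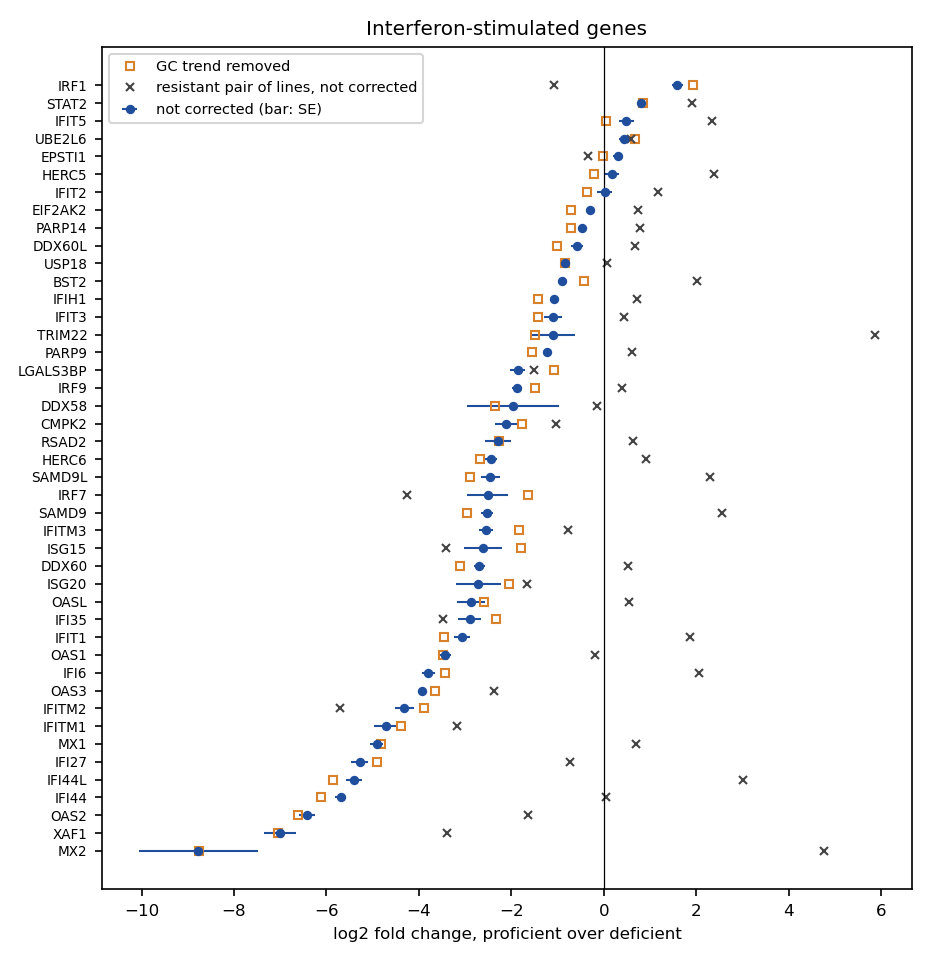
Log2 fold change, proficient over deficient (x axis), of 44 of the interferon-stimulated genes (y axis) in the parental lines with its standard error, in the parental lines with the GC trend removed, and in the resistant lines. Of the parental values drawn 35 are lower and 5 higher; MX2 has 0 counts in the parental proficient line, so its fitted value is no bound. The crosses of the resistant lines lie on both sides of 0.

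MHC class I presentation and NF-kB targets leaned the same way, by less. Over all genes 30.1% were lower and 32.3% higher, and 31.1% and 31.7% with GC corrected. MHC class I molecules display peptides cut by the immunoproteasome and carried by TAP. Of 20 such genes, 13 were lower and 3 higher (median -0.61, corrected -0.35 with 11 lower and 3 higher), and 1 was higher without deficient replicate 1 or without proficient replicate 1. HLA-B fell from 90.5 and 87.3 to 40.8 and 46.3 CPM (-1.03 ± 0.12, corrected -0.39); HLA genes share sequence, so its value is uncertain. The proteasome activator PSME2 was at 162 and 159.8 CPM against 90.8 and 91.9 CPM (-0.82 ± 0.08), and TAPBPL at 10.9 and 10.9 CPM against 3.67 and 4.01 CPM (-1.50 ± 0.18, corrected -0.94). The peptide-trimming ERAP2 was higher, 5.07 and 5.08 against 10.8 and 10.4 CPM (1.06 ± 0.15, corrected 0.66).

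Of 24 NF-kB targets and inflammatory cytokines tested of 29 listed, 16 were lower (66.7%) and 2 higher (8.33%), where 30.1% and 32.3% of all genes were. The median was -0.67, corrected -0.38 with 13 lower and 4 higher. The feedback inhibitor TNFAIP3 fell from 61.2 and 65.7 to 24.5 and 23.4 CPM (-1.41 ± 0.09), the adhesion molecule ICAM1 from 226 and 216 to 93.9 and 95.3 CPM (-1.22 ± 0.08, corrected -0.64), and the chemokines CXCL1 and CCL2 by 1.32 and 2.43 on the log2 scale. IL6 went the other way, from 3.29 and 4.25 to 12.2 and 12.9 CPM (1.73 ± 0.22, adjusted p = 3.65e-05).

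Genes of the cell surface and matrix also differed. Integrins bind cells to laminins and other matrix proteins. Of 28 integrin and laminin genes tested of 29 listed, 18 were lower (64.3%) and 6 higher (21.4%) in the proficient line, where 30.1% and 32.3% of all genes were. The median was -1.04, and the same counts held with GC corrected (median -0.95). ITGA6, the alpha-6 chain of laminin receptors, fell from 181 and 189 to 34.8 and 33.6 CPM (-2.44 ± 0.08), and ITGA5, which pairs with ITGB1 as the fibronectin receptor, from 39.2 and 37.5 to 1.61 and 1.59 CPM (-4.58 ± 0.15). LAMA4 fell from 78.6 and 72.6 to 7.26 and 5.74 CPM (-3.54 ± 0.14). Against this, LAMA1 went up from 3.98 and 3.76 to 69.3 and 73.1 CPM (4.20 ± 0.15, adjusted p = 3.49e-09), and ITGB3, whose product pairs with the alpha-V chain, from 241 and 241 to 713 and 701 CPM (1.55 ± 0.06). The laminin and integrin chains thus differed in opposite directions between the lines.

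Of 25 collagen genes tested of 29 listed, 12 were lower (48%) and 3 higher (12%), where 30.1% and 32.3% of all genes were (median -0.74, corrected -0.50). COL8A1 fell from 538 ± 12.8 CPM in the deficient to 97.7 ± 3.33 CPM in the proficient line (SD, n = 2; -2.46 ± 0.06, adjusted p = 4.46e-10) and COL27A1 from 13.2 and 9.44 to 1.65 and 2.18 CPM (-2.55 ± 0.26). COL12A1 was higher, 174 and 179 against 285 and 282 CPM (0.68 ± 0.06, corrected 0.45), as was COL4A5 (0.60 ± 0.13). Among matrix proteases and their inhibitors, 24 tested of 31 listed, 11 were lower (45.8%) and 4 higher (16.7%), beside the same shares of all genes. The median was -1.02, or -0.89 with genes at 0 counts set at their bound, corrected -0.71. ADAMTS9 fell from 25.8 and 29.1 to 3.67 and 2.52 CPM (-3.16 ± 0.21) and ADAMTS1 from 54.8 and 50.6 to 14 and 11.5 CPM (-2.05 ± 0.11). TIMP3, the inhibitor of metalloproteases that is bound to the matrix, was far higher in the proficient line, 27 and 25 against 312 and 303 CPM (3.56 ± 0.07, adjusted p = 1.19e-10), while TIMP2 was lower (-0.90 ± 0.07). ADAMTS12 was higher (0.88 ± 0.07).

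More mesenchymal genes were lower than higher. Of 30 mesenchymal genes tested of 31 listed, 13 were lower and 5 higher and 12 did not pass the test (median -0.92, or -0.72 with genes at 0 counts at their bound, corrected -0.83), and 3 were higher without deficient replicate 2. Vimentin (VIM) fell from 79.4 and 80.6 to 15.6 and 15.1 CPM (-2.38 ± 0.07, corrected -1.65), the actin-binding TAGLN from 88.8 and 86.1 to 7.26 and 9.44 CPM (-3.38 ± 0.11) and TGFBI, a matrix protein induced by TGF-beta, from 54.8 and 55.7 to 5.4 and 5.19 CPM (-3.38 ± 0.10). CCN1 and CCN2, matricellular proteins, were higher by 0.57 and 0.35. Of 40 epithelial genes, 18 were lower (45%) and 13 higher (32.5%), where 30.1% and 32.3% of all genes were (median -0.09). With GC corrected 15 were lower and 18 higher (median 0.13). The keratins were lower: KRT8 went from 2767 and 2665 to 883 and 989.6 CPM (-1.54 ± 0.12, corrected -0.98), KRT18 from 2431 and 2339 to 1052 and 1221 CPM (-1.07 ± 0.09, corrected -0.52), KRT19 by -1.52 (corrected -0.77) and KRT7 by -1.01 (corrected -0.33). GRHL1, a transcription factor of epithelial barriers, was higher, 28.1 and 27.9 against 112 and 112 CPM (corrected 1.84), as was the desmosomal cadherin DSC2 (29 and 34.8 against 86.9 and 76.2 CPM, 1.35 ± 0.11).

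The labelled cell type was compared with its markers. PAX8, the Mullerian lineage factor, stood at 218 CPM in the deficient and 209 CPM in the proficient line (means, -0.06), and the epithelial adhesion molecule EPCAM at 746 and 751 CPM (0.01). Neither passed the test, and with GC corrected PAX8 was at 0.38 and EPCAM at -0.20, both past it. WT1, often found in serous ovarian carcinoma, was near 0 in both lines (0.0658 and 0.219 CPM). These 3 genes were picked from the marker list for this check. Over all genes 30.1% were lower and 32.3% higher, and 31.1% and 31.7% with GC corrected. Of 19 ovarian and Mullerian markers tested of 23 listed, 11 were lower and 2 higher (median -1.07, or -0.65 with genes at 0 counts at their bound; corrected -0.39, with 8 lower and 5 higher), and 7 were lower without proficient replicate 1. MUC16, the source of the CA-125 antigen, fell from 219 and 212 to 89.1 and 79.5 CPM (-1.35 ± 0.07) and the transcription factor MECOM from 30.6 and 28.9 to 6.69 and 7.23 CPM (-2.09 ± 0.11). The kallikrein KLK6 (2.83 and 2.9 CPM in the deficient line) and LHX1 (2.07 and 1.69 CPM) had 0 counts in the proficient line, at least 51.3-fold and 33.5-fold lower. The oestrogen receptor ESR1 had 1 count in the deficient line against 3.59 and 2.9 CPM, a ratio of 105 (95% counting interval 28.6 to 874), and FOLR1 rose from 11.4 and 12.2 to 25.3 and 29.9 CPM (1.23 ± 0.19).

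Markers of other cell types were low or mixed. The 8 fibroblast markers summed to 61 to 70.9 CPM in the deficient and 47.9 to 48.4 CPM in the proficient libraries, and of 3 tested only THY1 was lower (12.9 and 12.2 against 0.645 and 0.553 CPM), though 2 were without either resistant deficient library and 3 in a fit of the parental groups alone. The 8 leukocyte markers summed to 24.1 to 25.1 and 18.6 CPM, with CD3E and NKG7 at 0 in all 4 libraries. The 6 endothelial markers summed to 47 to 50.6 CPM in the deficient and 4.49 to 5.68 CPM in the proficient line, and 4 of 5 tested were lower. Most of that sum was CDH5, VE-cadherin, at 36.9 and 33.9 CPM against 0.484 and 0.519 CPM (-6.13 ± 0.20), while PECAM1 was at 2.47 and 3.01 CPM against 1.89 and 0.933 CPM, a call lost without deficient replicate 2 (adjusted p = 0.101) or proficient replicate 2 (adjusted p = 0.189). Of 4 mesothelial markers tested of 6, 3 were lower, with summed levels of 32.6 to 35.3 and 13 to 16.1 CPM. Their part in the differences above was not tested.

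Most genes of homologous recombination other than BRCA1 differed by small amounts. Of 32 genes of homologous recombination, 15 were higher (46.9%) and 4 lower (12.5%), where 32.3% and 30.1% of all genes were (median 0.19). With GC corrected 8 were higher and 11 lower (median -0.08), where 31.7% and 31.1% of all genes were. Without proficient replicate 1, 9 were higher and 2 lower, and without deficient replicate 1, 2 were lower. The kinase ATM was higher in either computation, 75.5 and 71.9 against 147 and 141 CPM (0.96 ± 0.07, corrected 0.53), and so were 2 subunits of the break-binding MRN complex, MRE11 (0.78 ± 0.07, corrected 0.36) and RAD50 (0.69 ± 0.07, corrected 0.26). SWI5, an accessory factor of recombination, was lower (-1.01 ± 0.11, corrected -0.54). BARD1, the partner of BRCA1, was at 25.8 and 25.4 CPM against 36 and 34.7 CPM (0.47 ± 0.10), a call lost on correction (0.03, adjusted p = 0.785). PALB2 had 0.25 ± 0.08, and its call was lost on correction (-0.11, adjusted p = 0.133) and without any single parental library (adjusted p = 0.0579 to 0.162). BRCA2 at 76 and 80.4 CPM against 82.2 and 76.5 CPM did not pass the test (0.02 ± 0.09, adjusted p = 0.853), and the corrected value was -0.43 (adjusted p = 2.14e-06).

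End protection by 53BP1, RIF1 and shieldin blocks resection, and its loss restores recombination in BRCA1-deficient cells. TP53BP1 and SHLD2 did not pass the test (0.11 ± 0.08 and 0.13 ± 0.11), and the corrected value of SHLD2 was -0.31 (adjusted p = 0.00129). RIF1 was higher by 0.38 ± 0.09 and MAD2L2 lower (-0.79 ± 0.16), and both calls were lost on correction (-0.06 for each, adjusted p = 0.222 and 0.61); RIF1 also lost its call without proficient replicate 1 (adjusted p = 0.0546). Of 20 end-joining and end-protection genes 5 were higher (25%, where 32.3% of all genes were) and 6 lower (30%, against 30.1%). These shares lay near or below those of all genes. On correction 4 were higher and 8 lower, and 10 were lower in a fit of the parental groups alone. XRCC6, the Ku70 subunit, fell from 511 and 526 to 361 and 359 CPM (-0.53 ± 0.06), and the kinase PRKDC from 1380.5 and 1325 to 1127 and 1071 CPM (-0.30 ± 0.06, corrected -0.57). The ubiquitin ligases RNF8 and RNF168, which mark chromatin at breaks, were higher by 1.11 ± 0.11 and 0.75 ± 0.07 (corrected 0.87 and 0.44).

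Among the Fanconi and fork protection genes, 7 of 24 were higher (29.2%, where 32.3% of all genes were) and 4 lower (16.7%, against 30.1%), and on correction 7 and 9. Without deficient replicate 1 the lower count was 2, without proficient replicate 2 it was 1, and without any single resistant library it was 7. FANCD2, the clamp that is ubiquitinated at crosslinks, was higher, 62.1 and 60.6 against 107 and 103 CPM (0.77 ± 0.07, corrected 0.46), and FANCA lower (-0.60 ± 0.10, corrected -0.36).

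PARP1, the main target of PARP inhibitors, was lower in the proficient line. It stood at 641 and 635 CPM in the deficient and 281 and 279 CPM in the proficient libraries (-1.19 ± 0.06, adjusted p = 4.52e-08, corrected -0.71). Of 23 PARP and single-strand break repair genes tested of 25 listed, 13 were lower (56.5%) and 4 higher (17.4%), where 30.1% and 32.3% of all genes were. The median was -0.36, corrected -0.28 with 14 lower and 5 higher. The abasic site nuclease APEX1 fell from 258 and 261 to 111 and 122 CPM (-1.15 ± 0.07). TNKS2, a tankyrase, rose from 86.1 and 90.6 to 198 and 164 CPM (1.03 ± 0.09, corrected 0.66) and PARP8 from 32.4 and 32.6 to 67.5 and 68.8 CPM (1.07 ± 0.09). SLFN11, which blocks stressed replication forks and is linked to drug sensitivity, was at 1.45 and 1.49 CPM against 7.02 and 6.74 CPM (2.22 ± 0.25, adjusted p = 1.69e-05). The drug efflux pump ABCB1 was at no more than 0.329 CPM in any parental library. Its relative ABCC1 was at 110.1 and 99.6 CPM against 128 and 127 CPM (0.28 ± 0.07, corrected 0.55), with the uncorrected call lost without deficient replicate 2 or proficient replicate 1 (adjusted p = 0.138 and 0.0566). The transcriptional kinase CDK12 was higher by 0.32 ± 0.06 (corrected 0.19).

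Genes that p53 can induce leaned upward. Of 24 tested of 25 listed, 16 were higher (66.7%) and 5 lower (20.8%), where 32.3% and 30.1% of all genes were (median 0.55). With GC corrected 15 were higher and 3 lower (median 0.39). GDF15, a secreted stress cytokine, rose from 6.68 and 5.02 to 43.4 and 48.8 CPM (2.98 ± 0.20), the checkpoint gene GADD45A from 59.8 and 63.2 to 161 and 157 CPM (1.37 ± 0.09), cyclin G1 (CCNG1) from 173 and 173 to 505 and 447 CPM (1.46 ± 0.08) and TP53INP1 from 26.9 and 28.2 to 84.5 and 80.0 CPM (1.58 ± 0.08). The pro-apoptotic BAX was lower (34.5 and 29 against 12 and 15.1 CPM, -1.22 ± 0.15, corrected -0.54) and so was TP53I3 (-1.90 ± 0.19). Several of these genes, such as GADD45A and GDF15, also respond to stress without p53.

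The integrated stress and unfolded protein responses had the highest corrected median of the lists with at least 10 members tested. Of 29 genes, 20 were higher (69.0%) and 6 lower (20.7%), where 32.3% and 30.1% of all genes were (median 0.64). With GC corrected 23 were higher and 5 lower (median 0.79). ATF3, a stress-induced transcription factor, rose from 11.7 and 12 to 71.8 and 64.9 CPM (2.52 ± 0.11, adjusted p = 1.81e-08). DDIT3, which encodes CHOP, rose from 41.4 and 40.4 to 162 and 157 CPM (1.97 ± 0.09), and the pseudokinase TRIB3 from 91 and 82 to 301 and 305 CPM (1.81 ± 0.09, corrected 2.57). XBP1, the effector of the IRE1 arm, rose from 111 and 109 to 334 and 311 CPM (1.55 ± 0.06). The chaperone HSP90B1 went the other way, from 2117 and 2158 to 1596 and 1474 CPM (-0.48 ± 0.07, corrected -0.81), as did SDF2L1 (-1.46 ± 0.21, corrected -0.61). The 4 named genes that rose were chosen for the smallest p, so the separation of their libraries follows from the choice.

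**Figure D4:**
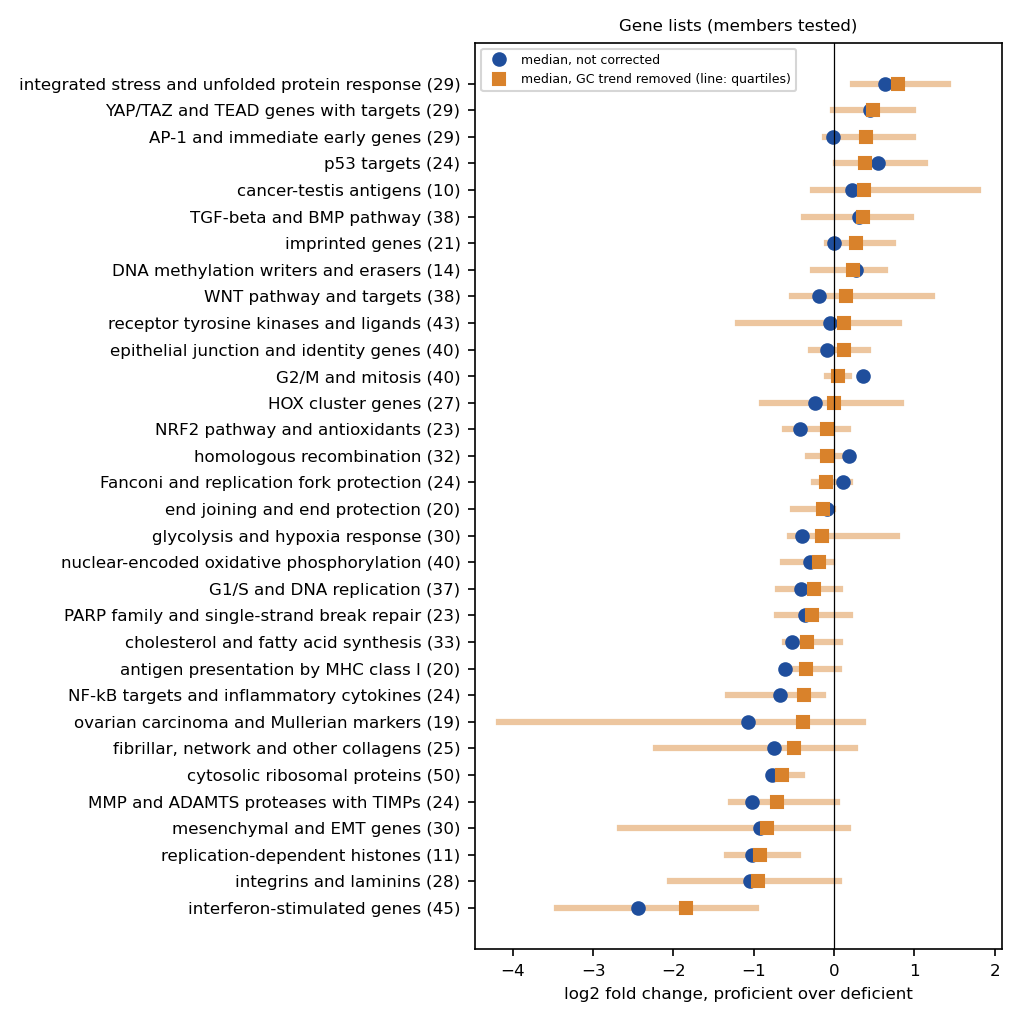
Median log2 fold change, proficient over deficient (x axis), of the 32 gene lists with at least 10 members tested (y axis, members tested in brackets), uncorrected (circles) and with the GC trend removed (squares, line from the lower to the upper quartile). Interferon-stimulated genes are lowest at -1.84 and stress response genes highest at 0.79 on the corrected scale. Genes at 0 counts in a line enter with their fitted value.

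Cell cycle lists depended on the GC correction in part. Over all genes 32.3% were higher and 30.1% lower, and 31.7% and 31.1% with GC corrected. Of 37 G1/S and replication genes 21 were lower and 9 higher (median -0.41), and with GC corrected 21 and 7 (median -0.25). MCM4, a subunit of the replicative helicase, fell from 366 and 356 to 200.5 and 194 CPM (-0.87 ± 0.06, corrected -0.99), cyclin E1 (CCNE1) from 104 and 104 to 61.7 and 59 CPM (-0.78 ± 0.07), cyclin D1 (CCND1) from 758 and 739.6 to 429 and 410.3 CPM (-0.84 ± 0.06, corrected -0.37), and the polymerase POLE by 1.08 (log2; corrected -0.69). Of 40 G2/M genes 26 were higher (65%) and 5 lower (12.5%) (median 0.36). With GC corrected 13 were higher and 10 lower (median 0.05), near or below the corrected shares of all genes. CDC25C, the phosphatase that activates CDK1, held its difference (20.4 and 20.5 against 53.3 and 55 CPM, 1.41 ± 0.09, corrected 1.19), as did the centromeric histone CENPA (49.1 and 50.9 against 109 and 111 CPM, 1.14 ± 0.07, corrected 0.95). Of 11 replication-dependent histones tested of 19 listed, 6 were lower and 0 higher, and 3 were lower without proficient replicate 1. Their transcripts lack poly(A) tails and are near-identical copies, so these low counts (H2BC5, 4.31 and 3.64 against 1.73 and 1.69 CPM) are uncertain.

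Ribosomal protein genes shifted together. Of 50, 43 were lower (86%) and 3 higher (6%), where 30.1% and 32.3% of all genes were (median -0.78). With GC corrected 44 were lower and 1 higher (median -0.65). RPL7A fell from 2399 and 2322 to 919.7 and 993 CPM (-1.30 ± 0.09), RPL32 from 825 and 819 to 350.1 and 365 CPM (-1.20 ± 0.07), RPL4 from 2421 and 2483 to 1363 and 1406 CPM (-0.82 ± 0.06) and RPL37 from 1076 and 1103 to 561 and 573 CPM (-0.94 ± 0.07). Ribosomal protein genes have many processed pseudogenes, and reads common to them could be split in ways the sources used here do not give.

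Lipid and carbon metabolism genes were mixed with more members lower. Of 33 genes of sterol and fatty acid synthesis, which SREBP factors induce, 20 were lower and 6 higher (median -0.53, corrected -0.33). HMGCS1, which makes the precursor of mevalonate, fell from 479 and 475 to 209 and 188 CPM (-1.26 ± 0.08, corrected -1.68) and NSDHL from 85.5 and 83.7 to 30.0 and 32.8 CPM (-1.43 ± 0.08). The sterol carrier STARD4 was higher (0.89 ± 0.09, corrected 0.46). Of 30 glycolysis and hypoxia genes tested of 31 listed, 14 were lower (46.7%) and 10 higher (33.3%), where 30.1% and 32.3% of all genes were. Pyruvate kinase PKM fell from 1923 and 1893 to 689 and 724 CPM (-1.43 ± 0.07) and PGK1 from 581 and 577 to 322 and 317 CPM (-0.86 ± 0.06), whereas hexokinase HK2 rose from 117 and 117 to 296 and 296 CPM (1.34 ± 0.06, adjusted p = 1.58e-08). Of 40 oxidative phosphorylation genes 22 were lower and 9 higher, corrected 20 and 3; without deficient replicate 2 the higher count was 5, and without proficient replicate 1 it was 4. SDHA, the catalytic subunit of complex II, fell from 124 and 125 to 52.3 and 54.9 CPM (-1.21 ± 0.10) and ATP5MC1 from 106 and 95.5 to 42.2 and 47.1 CPM (-1.17 ± 0.08). Of 23 NRF2 pathway genes tested of 25 listed, 12 were lower (52.2%) and 8 higher (34.8%), corrected 8 and 5. NFE2L2, which encodes NRF2, was higher (177 and 198 against 369.6 and 346 CPM, 0.93 ± 0.08, corrected 0.61), while its inhibitor KEAP1 was lower (81.7 and 72.4 against 26.9 and 31.2 CPM, -1.40 ± 0.13, corrected -0.66) and so was the thioredoxin reductase TXNRD1 (-0.77 ± 0.06).

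In the WNT pathway 12 of 38 genes tested (45 listed) were higher (31.6%) and 9 lower (23.7%), where 32.3% and 30.1% of all genes were. In a fit of the parental groups alone 14 members were lower. The secreted inhibitor DKK1 fell from 109.9 and 110.3 to 4.76 and 3.77 CPM (-4.70 ± 0.11, adjusted p = 3.73e-10) and the ligand WNT7A from 52.9 and 49.5 to 3.02 and 3.42 CPM (-3.98 ± 0.15). WNT5A rose from 2.11 and 2.52 to 16.4 and 16.2 CPM (2.81 ± 0.14), the inhibitor SFRP1 from 205 and 204 to 540.3 and 529.5 CPM (1.39 ± 0.06), the repressor TCF7L1 by 2.87 ± 0.29 and AXIN2, a target that feeds back on the pathway, by 1.77 ± 0.21.

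Of 38 TGF-beta and BMP genes 18 were higher (47.4%) and 10 lower (26.3%) in either computation (median 0.32, corrected 0.36). Over all genes 32.3% were higher and 30.1% lower, and 31.7% and 31.1% with GC corrected. The ligand TGFB2 rose from 11.7 and 10.7 to 55.7 and 50.9 CPM (2.25 ± 0.15), LTBP1, which stores latent TGF-beta in the matrix, from 22.5 and 23.5 to 127 and 125 CPM (2.46 ± 0.07), the co-receptor TGFBR3 from 5.76 and 6.37 to 27.8 and 24 CPM (2.09 ± 0.14) and ID4 from 4.31 and 5.51 to 42.1 and 39.3 CPM (3.05 ± 0.15). PMEPA1, a target that damps the pathway, fell from 178 and 168 to 41.4 and 41.1 CPM (-2.07 ± 0.07).

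Of 29 genes of the YAP/TAZ and TEAD list 18 were higher (62.1%) and 9 lower (31.0%), where 32.3% and 30.1% of all genes were (median 0.44). With GC corrected 18 were higher and 6 lower. The upstream regulator AMOT rose from 46.7 and 41.7 to 103 and 95.7 CPM (1.17 ± 0.08). The targets F3, tissue factor, and AXL, a receptor kinase, were among the 9 members that were lower and do not stand for the targets as a set. F3 fell from 727 and 762 to 279 and 266 CPM (-1.45 ± 0.07). AXL fell from 298 and 280.4 to 109 and 109.8 CPM (-1.40 ± 0.08, corrected -0.85). Of 43 receptor kinase and ligand genes tested of 46 listed, 19 were lower (44.2%) and 13 higher (30.2%), where 30.1% and 32.3% of all genes were. MET, the receptor of hepatocyte growth factor, fell from 1148 and 1142 to 364 and 355 CPM (-1.67 ± 0.07) and FGF5 from 32.5 and 32 to 1.77 and 1.59 CPM (-4.26 ± 0.17). The receptor ERBB3 rose from 65.9 and 68.7 to 131 and 135 CPM (0.98 ± 0.07).

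Of 29 immediate early genes tested of 31 listed, 11 were higher (37.9%) and 9 lower (31.0%), where 32.3% and 30.1% of all genes were (median -0.02). With GC corrected 15 were higher and 7 lower (median 0.40). EGR1 rose from 2.99 and 2.98 to 42.3 and 43.3 CPM (3.84 ± 0.17, adjusted p = 1.77e-08) and the MAP kinase phosphatase DUSP1 from 13.9 and 13.9 to 55.9 and 58.6 CPM (2.04 ± 0.10). FOSL1, the AP-1 subunit FRA1, fell from 58.9 and 58.6 to 8.06 and 8.37 CPM (-2.84 ± 0.10).

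The shares of HOX and imprinted genes called lay near or below those of all genes (32.3% higher and 30.1% lower) and are given as a description. Of 27 HOX genes tested of 39 listed, 9 were lower (33.3%) and 7 higher (25.9%), and 4 were higher without deficient replicate 1. The named members that were lower lay in the HOXB cluster, such as HOXB9 (2.11 and 2.47 against 0.0806 and 0.0691 CPM) and HOXB7 (7.07 and 8.43 against 3.39 and 3.98 CPM), and those that were higher in HOXD, such as HOXD10 (0.428 and 0.402 against 2.14 and 2.14 CPM). Of 21 imprinted genes tested of 25 listed, 7 were higher (33.3%) and 4 lower (19.05%). The growth inhibitor CDKN1C rose from 1.02 and 0.689 to 14.1 and 14.3 CPM (4.06 ± 0.25, adjusted p = 1.76e-07), and the neighbours PEG10 and SGCE rose from 722 and 744 to 1541 and 1455 CPM (1.03 ± 0.06) and from 73.8 and 79 to 184 and 176 CPM (corrected 0.90). The list of cancer-testis antigens, which did not include PASD1, had 10 of 30 members tested, 3 higher (30%) and 1 lower (10%), neither share above that of all genes. Among those higher was the helicase DDX43 (7.01 and 6.31 against 32.8 and 29.8 CPM, 2.23 ± 0.12). Of 14 genes tested of 15 listed that write, erase or read DNA methylation, 7 were higher and 5 lower, corrected 7 and 3; without deficient replicate 1 or proficient replicate 1, 3 were lower. The de novo methyltransferase DNMT3B rose from 39.2 and 44.8 to 111 and 114 CPM (1.41 ± 0.09), and the maintenance pair DNMT1 (-0.47 ± 0.07) and UHRF1 (-1.66 ± 0.23) was lower. DNA methylation itself was not measured.

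By chromosome, chromosome 5 stood apart. The median over its 766 genes was 0.60 and remained 0.44 with GC corrected, with 55.7% of genes higher and 15.5% lower on the corrected scale, beside 31.7% and 31.1% over all genes. On the corrected scale chromosome 6 came next (0.20, uncorrected 0.32) and chromosome 21 was the lowest (-0.24). Chromosome 19, whose genes are rich in GC, went from -0.31 to 0.11 on correction. Copy number was not measured, and its part in these medians was not tested.

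**Figure D5:**
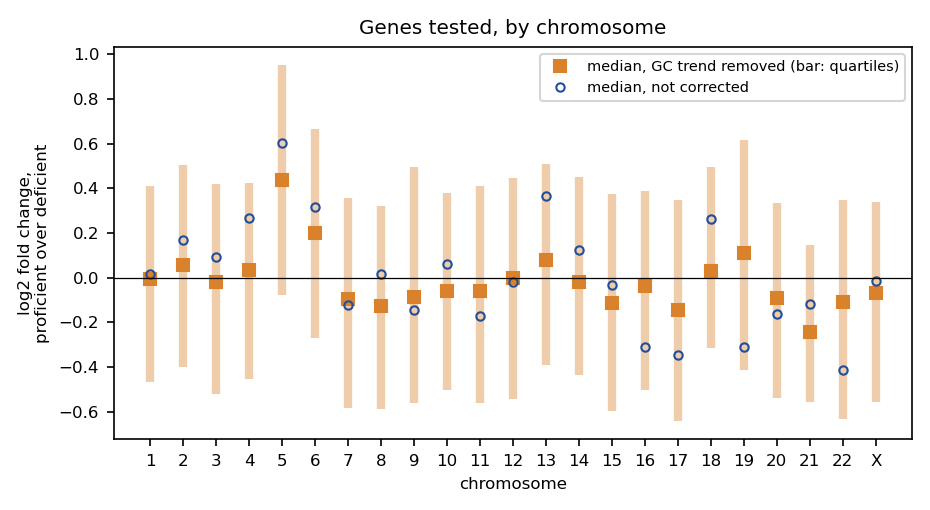
Median log2 fold change, proficient over deficient (y axis), of the genes tested on each chromosome (x axis), uncorrected (open circles) and with the GC trend removed (squares, bar from the lower to the upper quartile). Chromosome 5 has the highest median on both scales, 0.60 and 0.44.

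Neighbouring genes also differed in runs, taken in the gene order of the RefSeq table. There were 7 runs of at least 5 neighbouring tested genes that were all at least 2-fold higher and 26 that were all lower. With GC corrected, all genes stayed at least 2-fold changed in 1 of the 7 and in 1 of the 26, and none did in 1 and in 6 of them. The longest, 11 X-linked genes from DUSP9 to NAA10, was lower (median -1.96, corrected -1.30, all 11 called on correction) and included the adhesion molecule L1CAM, which fell from 211 and 187 to 47.3 and 54.8 CPM, and the creatine transporter SLC6A8, from 56.3 and 51.1 to 10.2 and 10.1 CPM. On chromosome 11, 7 genes from PSMD13 to PKP3 with the 3 IFITM genes among them were lower (median -1.71, corrected -1.20, 6 called on correction). A run of 7 on chromosome 8 from TONSL to RECQL4 was lower (median -1.53), but its corrected median was -0.71 and 0 of its genes stayed at least 2-fold. The calls of PGGHG, KIFC2 and TONSL-AS1 in these runs were lost on correction (adjusted p = 0.104, 0.241 and 0.0631), and TONSL-AS1 overlaps its partner, so reads of the pair cannot be told apart without strand. KIFC2 lost its call without proficient replicate 1 (adjusted p = 0.0886) and TONSL-AS1 without deficient replicate 1 or proficient replicate 2 (adjusted p = 0.121 and 0.123).

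The 7 runs of higher genes held 5 to 7 genes each, and the 2 with more than 5 were on chromosome 5. There, 7 genes from PPIP5K2 to PJA2 (median 1.28, corrected 0.85) included the ephrin EFNA5, 15.2 and 15.5 against 45.6 and 46.3 CPM, and PJA2, 81.4 and 84.1 against 267 and 248 CPM. A further 6 genes from BHMT to MTX3 (median 1.40, corrected 0.99) included JMY, an actin nucleator that also binds p300, at 31.7 and 34.4 CPM against 148 and 150.2 CPM (2.17 ± 0.08). On chromosome 1, a run of 5, a length that 4 other runs shared, from TRIM45 to TENT5C (median 2.50, corrected 2.72) included VTCN1, the immune checkpoint ligand B7-H4, which rose from 4.11 and 4.33 to 65.7 and 62.9 CPM (3.93 ± 0.13), and TRIM45, from 13.9 and 14.5 to 77.7 and 83.2 CPM (2.50 ± 0.09). All genes of the chromosome 5 and 1 runs were called on correction.

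The same contrast of BRCA1 state was available in the resistant derivatives, which share no library with the parental lines. Of the 1709 genes at least 2-fold higher in parental proficient cells, 1314 (76.9%) were also higher in resistant proficient cells, where 36.3% of all genes were, and 81 (4.74%) were lower. Of the 2306 lower, 1818 (78.8%) were lower there too (37.5% of all genes) and 166 (7.20%) higher. The resistant pair also had a GC trend of the same sign (rho -0.51) and more genes changed at least 2-fold (17.4% higher and 23% lower). With the parental calls limited to those kept on correction the shares were 77% and 78.5%. The resistant calls were left uncorrected there, so these shares are not free of the common GC trend. The test of the difference between the pairs passed for 7578 genes (46.7%).

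For interferon-stimulated genes the 2 pairs differed. In the resistant pair 23 of 45 were higher and 15 lower in the proficient line (median 0.54), where 36.3% and 37.5% of all genes were. The difference between the pairs passed for 38 genes, 35 of them with the lower value in the parental pair, and for 46.7% of all genes. MX1 was -4.91 ± 0.14 in the parental and 0.70 in the resistant pair (adjusted p of the difference = 4.16e-09), and IFI44 -5.69 ± 0.13 and 0.05 (adjusted p = 1.21e-09). OAS3 was lower in both (-3.93 ± 0.10 and -2.38). For stress response genes the difference passed for 22 of 29. In the resistant pair 9 of them were higher and 12 lower, near the shares of all genes. ATF3 had 0.03 there against 2.52 ± 0.11 (adjusted p = 6.1e-07), and TRIB3 -0.03 against 1.81 ± 0.09 (adjusted p = 1.33e-06). Ribosomal protein genes were lower in both pairs, 43 of 50 in the parental and 39 of 50 in the resistant one, where 30.1% and 37.5% of all genes were. Among the genes of the largest parental differences, MMP2, HHIP, PASD1, TSHR and SERPINA1 had the same direction in both pairs with no difference passing the test (adjusted p = 0.354, 0.313, 0.359, 0.123 and 0.147), which does not show that they were alike. ARMCX2 had 0 counts in the resistant deficient and 2 in the resistant proficient libraries, too few for a fold change.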

How the data were processed

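RNA-seq of total RNA was deposited for 8 libraries in 4 groups of 2, grouped by their titles. The deposited unit is read counts per gene, whole and not normalized. Per the submitters' processing notes, Trimmomatic 0.39, featureCounts, Subread 2.0.1, DESeq2 1.24.0 and GRCh37 were used. Which gene models were counted, whether strand was used and how multi-mapped reads were handled: not given in the sources used here.

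Genes that passed edgeR's filterByExpr (16221 of 32803) were normalized by TMM and tested with glmQLFit and glmQLFTest (R 4.3.3, edgeR 4.0.16, limma 3.58.1) over all 4 groups, with Benjamini-Hochberg adjustment at 0.05. Library totals ranged from 24094821 to 34394107 counts. Intervals and floors (3 counts over a group) cover counting error only, at the 95% level. For the GC correction, each library's trend of log2 CPM (prior count 2) on the GC content of GENCODE v29 transcripts was fitted by a natural spline with 5 degrees of freedom and entered as an offset; 15644 genes had a GC value and the others were left uncorrected. Gene neighbours and promoters came from RefSeq (GRCh38.p14), which matched 28530 genes of the table.

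Named genes were BRCA1, up to 12 protein-coding genes per direction with the largest fold change (at least 5 CPM in the higher group, no overlap, same call with GC removed), from each of 36 lists up to 4 members in the commoner direction and 2 in the other, a panel linked to PARP inhibitor response, members of the 3 longest runs per direction, genes with the smallest p for the difference between the pairs, and genes turned by the GC correction. Some named genes are not reported here. Members and lists were chosen with earlier results of these data known. Alternatives were other scalings (DESeq2's size factors, library totals), other filters, DESeq2 1.42.0, glmTreat, the parental groups alone, a replicate block, removal of the GC trend, and each library left out.

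On simulated data (15793 genes), the test recovered 52.2% of 67 genes changed 1.5-fold, 86.6% of 67 changed 2-fold and 98.5% of 66 changed 4-fold. It called 0.0834% of unchanged genes there. Changed genes were few in these data, whereas 62.4% of genes were called in the parental comparison. Whether the rates hold for the parental comparison was not tested.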

Additional observations from a re-analysis of the deposited data

Results flagged for a closer look

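The log2 fold change between BRCA1 states differed between the parental and the resistant pair by the test of the difference itself for 195 of 277 named genes (many were chosen for a large parental difference, which enters this test, so the count is only a description). Values in brackets are the parental minus the resistant log2 fold change. The genes with the smallest p and a higher parental value were FN1 (4.77), ZMYM2 (12.41), MUC4 (7.61), IGFBP5 (4.32) and CALB1 (5.04). Those with a lower parental value were EHF (-10.46), SLC34A2 (-5.17), C3 (-8.01), PCDH19 (-6.69) and FST (-4.24). BRCA1 itself differed (-3.53), with a larger difference in the resistant pair.

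A further set of named genes was called in opposite directions in the pairs; over all named genes this held for 35, and for all 35 the difference also passed with the GC trend removed. The parental value was higher for RAD50 (0.96), GADD45A (2.46), IRF1 (2.67), UQCRC2 (1.34), BHLHE40 (1.41), SLC7A11 (1.58), CCN2 (0.70), ID4 (3.83), DUSP5 (1.58), TET3 (1.22), PALB2 (2.06) and ABCC1 (1.37). It was lower for PARP9 (-1.85), H2BC5 (-1.83), MX1 (-5.61), PSME2 (-1.14), ICAM1 (-1.57), CXCL1 (-1.79), CCL2 (-6.09), HSP90B1 (-1.19), HMGCS1 (-2.51), COX6B1 (-1.30), PGK1 (-1.66), VIM (-3.19), MECOM (-3.01), MUC16 (-3.09), HOXB4 (-2.03), HOXB2 (-4.86), MEST (-0.99) and PEG3 (-6.73). PEG3 had 0 counts in the parental proficient libraries, so its fitted value is no bound. The difference passing with the GC trend removed does not show that the directions stayed opposite. For PALB2 they did not, as its parental value was then -0.108 and did not pass the test. The uncorrected parental calls of PALB2 and ABCC1 also depended on single libraries.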

How the results depend on the processing

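The counts of genes changed at least 2-fold stayed within 1.5 times of 1709 higher and 2306 lower under every alternative run except glmTreat, which tests against a 2-fold change itself and called 876 and 1039. Without single libraries the counts ran from 1445 to 1732 higher and from 1990 to 2478 lower, and BRCA1 stayed between 2.40 and 2.58. Replicate numbers did not pair the parental samples (correlation of deviations -0.052), and with a replicate block 1704 genes were higher and 2280 lower. Of 4681 values of single genes under alternatives, 4585 kept direction and side of the threshold, 57 lost their call, 4 gained one and 35 changed sign. BRCA2 changed sign with library totals (-0.0562), with no filter (-0.0184), with a 1 CPM filter (-0.0507), with the parental groups alone (-0.0242) and with GC removed (-0.426, and -0.426 with the block). It also did so without deficient replicate 1, proficient replicate 1 or any single resistant library. Over all fits without a single library BRCA2 ran from -0.0595 to 0.0745. With GC removed, and with GC removed and the replicate block, the values were PALB2 -0.108 and -0.108, TP53BP1 -0.0539 and -0.0540, RIF1 -0.0613 and -0.0614, SHLD2 -0.315 and -0.315, ZMYM2 -0.343 and -0.343, NSA2 -0.110 and -0.110, FZD6 -0.101 and -0.101, HERC4 -0.123 and -0.123, HDAC7 0.139 and 0.138, PDLIM7 0.235 and 0.236, and SMG9 0.192 and 0.190. Without single libraries ABCB1, at low counts, ran from -5.49 to 0.338, the latter without deficient replicate 1. The cause of the changes outside the GC correction was not tested. With 2 libraries a group, changes near 1.5-fold were recovered least often in the simulation.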
